A study of Arabidopsis thaliana with 8 samples.

Results

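The MIR165 and MIR166 precursors of Arabidopsis were all entries of the precursor column that belong to these families, whatever their letter. The files write them as miR165a, miR165b, miR166a, miR166b, miR166f, miR166g and so on. There were 9 of them, 2 of MIR165 and 7 of MIR166, among 108 precursors in all. The study used SPARE (Specific Parallel Analysis of RNA Ends), in which an adapter is ligated to the 5′ end of each RNA fragment and the fragments of MIRNA precursors are then copied with primers specific to them. The start of a sequenced tag therefore marks a 5′ end that was left behind when a precursor was cut or degraded. There were 8 libraries from 4 genotypes, 2 each, and all plants were 10 days old and grown in continuous light. The genotypes were fiery1 (labelled Fiery1 -/-), hyl1 (Hyl1 -/-), se (Se -/-) and the wild type Col. The labels name no alleles, and they give the tissue of every library as seedling whole bud, which could not be checked with marker genes because only precursors were measured. The transcripts of FIERY1, HYL1 and SE were not analysed here.

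The miRNAs miR165 and miR166 direct the cleavage of transcripts of the class III HD-ZIP transcription factors, which specify the upper side of leaves, the shoot meristem and the vasculature. Their precursors are short hairpins, and the nuclease DCL1 is known to cut hairpins of this kind first near the base of the stem and then towards the loop, so that the base-side cut leaves a 3′ fragment that begins just after the miRNA. DCL1 works with HYL1, which binds double-stranded RNA, and with the zinc-finger protein SE (SERRATE). The phosphatase FIERY1 removes a compound that inhibits XRN exoribonucleases, which degrade such fragments, so these enzymes are inhibited where FIERY1 is lost.

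On their 3′ arms the 9 precursors carry only 2 different miRNAs, both of 21 nt, and these are shown because every base-side cut below is counted from their 3′ end. Sequences come from RefSeq on the TAIR10.1 build, are written 5′ to 3′ and have the seed (bases 2 to 8) in capitals.
miR165, from MIR165a and MIR165b: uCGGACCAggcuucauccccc
miR166, from MIR166a to MIR166g: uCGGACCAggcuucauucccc
All 9 share the seed CGGACCA, and the miRNAs differ by the substitution C17U, counted from the 5′ end with the base of miR165 first.

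The binding sites of these miRNAs in the 5 HD-ZIP III genes are shown because they join the precursors to what they regulate. Each site is 21 nt of coding sequence that spans the junction of coding exons 4 and 5, so its genomic interval includes an intron, and capitals mark the bases that are not complementary to miR166, G:U pairs included.
PHB (AT2G34710, chr2:14642530-14642666, minus strand): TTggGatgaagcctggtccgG
PHV (AT1G30490, chr1:10799330-10799445, minus strand): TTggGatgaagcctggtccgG
REV (AT5G60690, chr5:24398787-24398898, plus strand): CTggGatgaagcctggtccgG
ATHB8 (AT4G32880, chr4:15866872-15866974, minus strand): CTggGatgaagcctggtccgG
ATHB15 (AT1G52150, chr1:19412976-19413085, minus strand): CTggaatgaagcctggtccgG
PHB, PHV, REV and ATHB8 had 4 such bases against miR166 and 3 against miR165, while ATHB15 had 3 against miR166 and 4 against miR165. Cleavage of these transcripts was not measured here.

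The sequence around the base-side cut is where the precursors differ from each other. Each line gives the last 10 bases of the miRNA and the first 20 bases from the cut on, with the first 4 bases from the cut in capitals. They are written as DNA in the direction of the precursor.
MIR165a (AT1G01183, chr1:78912-78941, minus strand): ttcatcccccCCAAcatgttattgcctctg
MIR165b (AT4G00885, chr4:369836-369865, minus strand): ttcatcccccTCAAcatgttaattgccttc
MIR166a (AT2G46685, chr2:19176252-19176281, plus strand): ttcattccccCCAAttgttgctccctgttt
MIR166b (AT3G61897, chr3:22922312-22922341, plus strand): ttcattccccCCAAttatcactccctcaca
MIR166c (AT5G08712, chr5:2838748-2838777, plus strand): ttcattccccCTAAcctacttatcgctttt
MIR166d (AT5G08717, chr5:2840719-2840748, plus strand): ttcattccccCCAAccgacatatcacattc
MIR166e (AT5G41905, chr5:16775504-16775533, minus strand): ttcattccccTCAAttatatcgcttcgatc
MIR166f (AT5G43603, chr5:17516389-17516418, plus strand): ttcattccccTCAActtacacgttttgctt
MIR166g (AT5G63715, chr5:25504893-25504922, plus strand): ttcattccccTCAAcctattttatcgcatt
The fragment that the cut leaves begins with CCAA in 4 precursors (MIR165a, MIR166a, MIR166b and MIR166d), with TCAA in 4 (MIR165b, MIR166e, MIR166f and MIR166g) and with CTAA in MIR166c. All 9 are annotated as MIRNA genes of their own. In the folds predicted with RNAfold, 16 to 18 of the miRNA bases were paired, and 48 (MIR166g) to 94 (MIR165b and MIR166a) bases lay between the arms of the duplex.

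Total counts were 470789 and 821562 in fiery1, 45653 and 35860 in hyl1, 299513 and 510438 in se, and 80166 and 126556 in wild type. The values below use tags of 26 nt or more, which numbered 453388 and 795030 in fiery1, 45108 and 25753 in hyl1, 41677 and 82159 in se, and 56554 and 121429 in wild type. A precursor with no counts can therefore have stood at up to 3 counts, which is 3.77 CPM (the unit of counts scaled to a common library total) in the deepest library and 116.5 CPM in the shallowest. Both limits are scaled to library totals alone, without the normalisation of the CPM values below. Because there are no molecular identifiers, these limits and the binomial intervals below cover counting error only. All values are relative within a library. The hyl1 library of replicate 1 and the se library of replicate 2 carry another source label and later sample numbers than the rest, and nothing in the labels calls them a batch. The labels do not say that replicates were separate cultures, so p-values measure the spread between libraries, which may be technical.

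Tags of 26 nt or more were found for 6 of the 9 precursors, MIR165a, MIR165b, MIR166a, MIR166b, MIR166e and MIR166f. MIR166c, MIR166d and MIR166g had none in any library. The 6 precursors held 68014 counts at 36 positions, every position matched the genome exactly once, and no tag was also listed for another entry. Of these counts, 65605 (96.5%) began within 1 nt of the base-side cut and 63681 began exactly at it. None began within 1 nt of the 5′ end of the miRNA, where a loop-side cut on the 3′ arm would lie, which allows a share of up to 0.00441%. Fragments that begin at the base-side cut were copied, so the primers lie beyond it. A loop-side end could thus be read only from RNA not yet cut at the base, and later loop-side cuts could not be seen. The precursors together made up 2.92% and 4.52% of the tags in fiery1, 2.83% and 4.28% in hyl1, 1.97% and 3.17% in se, and 8.31% and 6.86% in wild type. Both libraries of each mutant thus lay below both wild-type libraries in the share of tags taken by the family. By normalised CPM, the same held for 20.3%, 16.2% and 21.6% of the single precursors tested in fiery1, hyl1 and se.

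MIR165a led the family in 6 of the 8 libraries. It held 80.8% and 87.2% of the family's counts in fiery1, 25.0% and 28.8% in hyl1, 67.4% and 90.0% in se, and 62.4% and 58.5% in wild type. The libraries of hyl1 stood apart as the only ones in which MIR166a and MIR166b together held most of the counts. Each precursor was copied with a primer of its own, so these shares describe the libraries and not the amounts of the RNAs against each other.

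The base-side cut of MIR165a was read in every library. The tags of MIR165a of 26 nt or more, wherever they begin, stood at 21642 and 30361 CPM in fiery1, 6139 and 17651 CPM in hyl1, 10856 and 31371 CPM in se, and 51571 and 51921 CPM in wild type. Here and below, such values count ends of cut or degraded fragments and not the intact precursor. All 6 mutant libraries lay below both wild-type libraries, and the wild-type libraries lay close together (51746 ± 247 CPM, SD, n = 2), whereas those of se were far apart (21113 ± 14507 CPM, SD, n = 2). In the order of the means, hyl1 was the lowest, then se, fiery1 and wild type, and se overlapped both hyl1 and fiery1, which did not overlap each other.

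MIR166a had 3186 and 2746 CPM in fiery1, 7312 and 20045 CPM in hyl1, 3062 and 107 CPM in se, and 10272 and 18756 CPM in wild type. The libraries of fiery1 and se lay below both wild-type libraries, and those of hyl1 overlapped them. In the order of the means, se and fiery1, which overlapped, were the lowest. MIR166b had 1129 and 601 CPM in fiery1, 11084 and 23553 CPM in hyl1, 2179 and 3356 CPM in se, and 20773 and 12042 CPM in wild type. The order of the means was fiery1, se, wild type and hyl1, and the highest 2, wild type and hyl1, overlapped.

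The other precursors were thinly covered. MIR165b had 184 and 642 counts in fiery1, 0 in both hyl1 libraries, 1 and 1 in se, and 0 and 343 in wild type. MIR166e had 54 and 42 counts in fiery1, 0 in both hyl1 and both se libraries, and 0 and 229 in wild type. Both precursors were thus seen in wild type in replicate 2 alone. MIR166f had 173 and 446 counts in fiery1, 2 and 2 in hyl1, 0 in both se libraries, and 3 and 0 in wild type. The fiery1 libraries were the deepest and the only ones in which MIR166f had more than 3 counts.

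**Figure D1:**
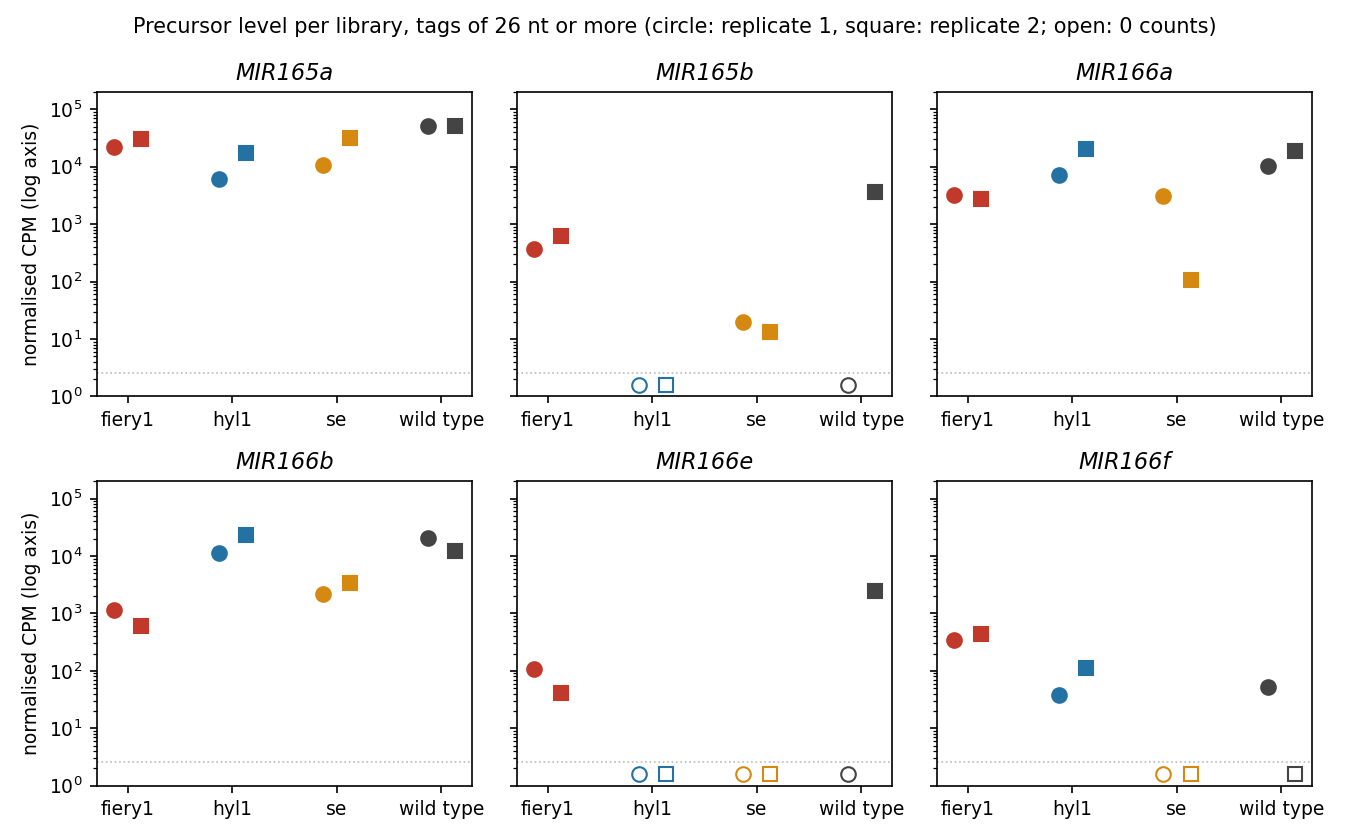
Normalised tag counts (CPM, log axis) of the 6 precursors with tags of 26 nt or more, by genotype, with a circle for replicate 1 and a square for replicate 2. Open marks below the dotted line are libraries with 0 counts, and MIR166b lay at 1129 and 601 CPM in fiery1, against 20773 and 12042 CPM in wild type.

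In fiery1, the tags of MIR166b fell, and the other precursors did not pass the test. MIR166b averaged 865 ± 373 CPM in fiery1 and 16408 ± 6173 CPM in wild type (SD, n = 2 each), which is a log2 fold change of -4.24 ± 1.07 (SE), with an edgeR adjusted p of 0.0244. Each fiery1 library lay below each wild-type library. In whole seedlings, fewer cells that hold these fragments and fewer fragments per cell cannot be told apart. Of the 5 members that passed the filter on low counts, MIR166b was the only call, while 6.76% of the 74 precursors tested were called lower and 13.5% higher. The call was lost when any of the 4 libraries was left out: without fiery1 replicate 1, fiery1 replicate 2, wild-type replicate 1 or wild-type replicate 2 the adjusted p was 0.302, 0.316, 0.0724 and 0.0553 in that order. It was also lost with all tag lengths (log2 fold change -3.83, adjusted p = 0.0907), and the log2 fold change lay between -5.66 and -3.75 in all alternatives.

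MIR166a averaged 2966 ± 311 CPM in fiery1 and 14514 ± 5999 CPM in wild type (SD, n = 2 each), and its log2 fold change was -2.29 ± 1.49 (SE; edgeR adjusted p = 0.279). MIR165a averaged 26001 ± 6165 CPM in fiery1 and 51746 ± 247 CPM in wild type (SD, n = 2 each), and its log2 fold change was -0.99 ± 0.77 (SE; edgeR adjusted p = 0.368). Neither passed in edgeR, although the libraries did not overlap. DESeq2 called both, at -3.62 (adjusted p = 0.0148) for MIR166a and -2.36 (adjusted p = 0.00302) for MIR165a, among 23 of 74 precursors called. In a fit of these 2 genotypes alone, edgeR called MIR166a (-2.31, adjusted p = 0.0428), among 40 of 77 precursors called. MIR165a, MIR166a and MIR166b each had both fiery1 libraries below both of wild type, which was so for 20.3% of the precursors tested.

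MIR165b had 373 and 621 CPM in fiery1, against 0 and 3655 CPM in wild type, so the groups overlapped (log2 fold change -1.88 ± 2.65 SE, edgeR adjusted p = 0.676). MIR166f had 351 and 432 CPM in fiery1, against 52.8 and 0 CPM in wild type. It averaged 391 ± 57.3 CPM in fiery1 and 26.4 ± 37.3 CPM in wild type (SD, n = 2 each), with an edgeR adjusted p of 0.144. The pooled counts, 619 in fiery1 and 3 in wild type, gave a ratio over the pooled depth of 29.4 without TMM scaling, with a 95% counting interval of 10.0 to 143. Both fiery1 libraries lay above both wild-type libraries, as in 52.7% of the precursors tested. MIR166f passed the filter on low counts only through its fiery1 libraries, so this order is not independent of the filter. How many of the other precursors passed in the same way was not counted. MIR166e was removed by the filter and has values but no test.

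Among the families that are also cut from the base, other than MIR165 and MIR166, 33 of 48 precursors were tested in fiery1 against wild type, of which 5 were called higher and 1 lower. Their median log2 fold change was 5.47, or 2.38 with precursors absent from a group set at their limit. The median over the 5 MIR165 and MIR166 precursors tested was -1.88, and over all 74 precursors it was 1.34, or 1.11 at the limit. In the families cut from the loop, 20 of 26 were tested, 3 were called higher and 3 lower, and the median was 0.60. The other families with roles in leaf polarity and the meristem (MIR160, MIR164, MIR319, MIR390 and MIR394, most of them also in the lists above) had 10 of 13 tested, 1 called higher and none lower, with a median of 6.89, or 2.59 at the limit.

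In hyl1, MIR165a stood at lower values than in wild type while MIR166a and MIR166b overlapped it, and no precursor passed the test. MIR165a averaged 11895 ± 8141 CPM in hyl1 and 51746 ± 247 CPM in wild type (SD, n = 2 each), with a log2 fold change of -2.12 ± 0.80 (SE). Its edgeR p was 0.0288 before and 0.225 after adjustment. The share called in this comparison was 0% of 74 precursors in edgeR, with 18.9% at an unadjusted p under 0.05 and 18 called by DESeq2, which also called MIR165a (-2.53, adjusted p = 0.00233). Both hyl1 libraries lay below both wild-type libraries in 16.2% of the precursors tested.

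MIR166a averaged 13679 ± 9004 CPM in hyl1 and 14514 ± 5999 CPM in wild type (SD, n = 2 each), and its log2 fold change was -0.09 ± 1.42 (SE; edgeR adjusted p = 1). MIR166b averaged 17319 ± 8817 CPM in hyl1 and 16408 ± 6173 CPM in wild type (SD, n = 2 each), and its log2 fold change was 0.08 ± 0.94 (SE; edgeR adjusted p = 1). Standard errors of this size leave differences of several fold in either direction undetected. MIR165b had no counts in hyl1, against 0 and 343 counts in wild type, so the groups overlapped. MIR166f had 4 counts in hyl1 and 3 in wild type, a ratio over the pooled depth, without TMM scaling, of 3.35 with a 95% counting interval of 0.567 to 22.9. The median log2 fold change of the 5 members tested was -0.09 and that of all precursors was 0, or 0.38 at the limit. It was 0.37, 0.84 and 4.45 in the lists cut from the base, cut from the loop and of the other polarity and meristem families, or 0.40, 0.84 and 3.09 at the limit, with 0 called in each.

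In se, MIR165a, MIR166a and MIR166b stood at lower values than in wild type in both libraries, and none passed the test. MIR166b averaged 2768 ± 833 CPM in se and 16408 ± 6173 CPM in wild type (SD, n = 2 each). Its log2 fold change was -2.57 ± 0.99 (SE), with an edgeR p of 0.033 before and 0.217 after adjustment. MIR166a averaged 1585 ± 2090 CPM in se and 14514 ± 5999 CPM in wild type (SD, n = 2 each), and its log2 fold change was -3.20 ± 1.54 (SE; edgeR adjusted p = 0.24). The log2 fold change of MIR165a was -1.29 ± 0.78 (SE), with an edgeR adjusted p of 0.311. Without se replicate 1 the log2 fold change was -7.10 in MIR166a, which had only 8 counts in se replicate 2, and -0.75 in MIR165a. Without se replicate 2 it was -2.41 in MIR166a and -2.42 in MIR165a. The share called was 0% of 74 precursors in edgeR, with 21.6% at an unadjusted p under 0.05 and 23 called by DESeq2. Both se libraries lay below both of wild type in 21.6% of the precursors tested.

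The se comparison depended on the tag length. With all tags, which in se were mostly shorter than 26 nt, MIR165a had a log2 fold change of -3.82 (edgeR adjusted p = 0.0165), MIR166a of -4.97 (0.0222) and MIR166b of -4.29 (0.0359), and 17 precursors were called. Short tags raised the totals from 41677 and 82159 to 299513 and 510438 in se. In wild type the totals rose from 56554 and 121429 to 80166 and 126556. In se, such tags added 0 and 60 counts to MIR165a, 0 and 197 to MIR166a, and 2 and 287 to MIR166b. In wild type they added 0 and 2 to MIR166b and none to MIR165a or MIR166a. The se values are thus relative to totals made mostly of short tags, whose origin was not tested. With tags of 26 nt or more, DESeq2 called MIR166a (-3.23, adjusted p = 0.0445) and MIR166b (-2.73, adjusted p = 0.00367). MIR165b had 2 counts in se and 343 in wild type, a ratio over the pooled depth, without TMM scaling, of 0.00838 with a 95% counting interval of 0.00101 to 0.0305, but wild-type replicate 1 had none and the groups overlapped. MIR166f had 0 counts in se and 3 in wild type, both at or under the limit. The median log2 fold change of the 5 members tested was -3.20, or -2.57 at the limit, against 0.10, or 0.02 at the limit, over all precursors. It was 0.78, 0.33 and 5.19 in the lists cut from the base, cut from the loop and of the other polarity and meristem families, or 0.15, 0.33 and 5.19 at the limit, with 0 called in each. The 3 comparisons share their wild-type libraries.

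**Figure D2:**
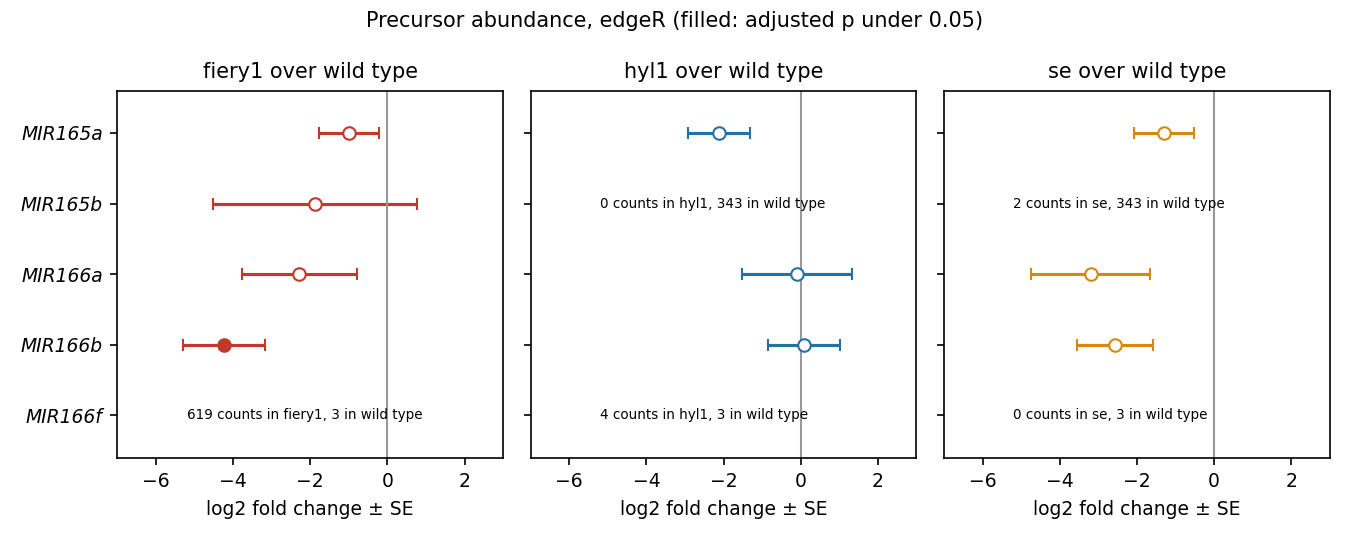
Log2 fold change of each precursor tested, mutant over wild type, with bars of 1 SE and a filled mark for an edgeR adjusted p under 0.05. MIR166b in fiery1, at -4.24, is the only filled mark, and text stands in place of a mark where a group had 3 counts or fewer.

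In wild type nearly all ends of the 3 well-covered precursors lay within 1 nt of the base-side cut. In fiery1 these shares were lower in value without passing the test. In MIR166a, 95.4% (95% exact interval 94.3 to 96.4) and 95.2% (94.3 to 95.9) of the counts began within 1 nt of the cut in fiery1, against 100% and 100% in wild type, where 584 and 1760 counts were read. In MIR166b the share was 92.8% (90.3 to 94.8) and 95.8% (93.9 to 97.2) in fiery1, against 100% and 100% in wild type. For MIR165a it was 97.5% (97.1 to 97.8) and 96.9% (96.7 to 97.1) in fiery1, against 99.0% (98.5 to 99.3) and 98.6% (98.3 to 98.9) in wild type. Both fiery1 libraries lay below both wild-type libraries in all 3 precursors, which held for 26.1% of the 23 precursors tested, while the reverse held for 52.2%.

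Where a library stands at 100%, its log odds are set by the offset of 0.5 and by its depth, so the differences that follow show a direction more than a size. On the log2 odds scale the difference was -6.65 ± 2.34 (SE) in MIR166a, with a limma p of 0.041 before and 0.095 after adjustment. It was -7.09 ± 4.64 (SE; limma adjusted p = 0.296) in MIR166b and -1.24 ± 1.58 (SE; limma adjusted p = 0.627) in MIR165a. With an offset of 1 it was -5.66 in MIR166a and -6.11 in MIR166b. None of the 3 passed, while 26.1% of the precursors tested were called in this comparison, all 6 of them higher. In a limma fit of these 2 genotypes alone, MIR166a (adjusted p = 0.00473) and MIR166b (0.00228) passed, at the same differences. That fit called 13 of the 23 precursors tested. Of the other families cut from the base 9 were tested with 0 called and a median difference of 0.17, and of those cut from the loop 8 were tested with 5 called higher and a median of 3.79. The median was -6.65 over the 3 members and 1.21 over all 23 precursors.

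In hyl1 the replicates disagreed for MIR166a. Its share within 1 nt of the cut was 72.9% (68.1 to 77.3) in hyl1 replicate 1 and 99.7% (98.5 to 100) in hyl1 replicate 2. Wild type had 100% and 100%, a difference of -6.32 ± 2.35 (SE; limma adjusted p = 0.249). Without hyl1 replicate 2 the difference was -9.56 (adjusted p = 0.0216), and without hyl1 replicate 1 it was -3.08 (0.192). In such fits the lone library is assumed to vary like the libraries of the other groups. MIR166b had 100% in all 4 libraries of hyl1 and wild type, so no difference in share was seen. MIR165a had 99.4% and 99.1% in hyl1, against 99.0% and 98.6% in wild type (0.38 ± 1.58 SE, limma adjusted p = 0.939). None of the 3 passed, while 5% of the 20 precursors tested were called. Both hyl1 libraries lay below both of wild type in MIR166a, as in 30% of the precursors tested, and above them in MIR165a, as in 10%.

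In se, by ends within 1 nt of the cut, each replicate departed from wild type in a different precursor among those tested. MIR165a had 98.9% (97.7 to 99.6) of its counts there in se replicate 1 and 75.9% (74.1 to 77.6) in se replicate 2, against 99.0% and 98.6% in wild type. MIR166b had 0.901% (0.0228 to 4.92) in se replicate 1, which is 1 of 111 counts, and 100% (98.5 to 100) in se replicate 2, against 100% and 100% in wild type. By this measure the groups overlapped in both precursors. Among all precursors tested, the se libraries lay below those of wild type in 52.6% and above them in 5.26%. The difference was -2.34 ± 1.57 (SE; limma adjusted p = 0.304) in MIR165a and -9.79 ± 4.67 (SE; limma adjusted p = 0.234) in MIR166b, while 5.26% of the 19 precursors tested were called. MIR166a had 92.3% (86.9 to 96.0) and 75.0% (34.9 to 96.8) in se and was not tested, because se replicate 2 held 8 counts. At the exact cut, MIR166b had 0.901% (0.0228 to 4.92) and 0.797% (0.0966 to 2.85) in se, against 100% and 80.3% in wild type, without overlap. That difference was -13.04 (limma adjusted p = 0.0451), with 2 of 19 precursors called. Over all precursors, separation of the libraries was counted only within 1 nt of the cut, where se lay below in 52.6%. Most ends of MIR166b lay 17 nt before the cut in se replicate 1 and 1 nt before it in se replicate 2. With all tags, where short tags count as elsewhere, the difference within 1 nt was -13.22 (limma adjusted p = 0.0152), with 12 of 30 called.

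The se differences within 1 nt of the cut turned on single libraries. With 1 se library left the spread comes from the other genotypes alone, so the p-values below describe that library and not the genotype. Without se replicate 1, MIR165a had a difference of -4.71 (limma adjusted p = 0.0065) and MIR166b of -2.20 (0.0771). Without se replicate 2, which is also the library with the later sample number, MIR165a had a difference of 0.03 (0.985) and MIR166b of -17.38 (0.000157).

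**Figure D3:**
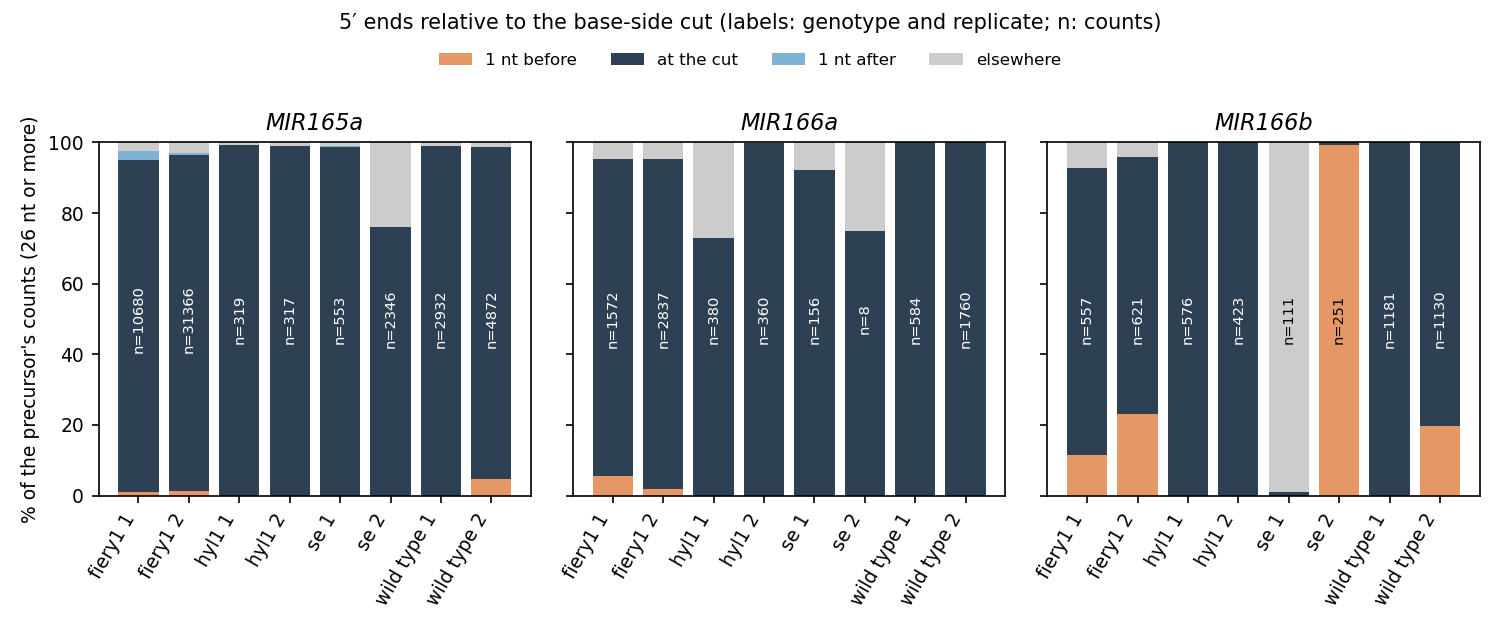
Share of each precursor's counts (%, tags of 26 nt or more) whose 5′ end lay 1 nt before the base-side cut, at it, 1 nt after it or elsewhere, per library, with the number of counts in each bar. In MIR166b, 99.2% of the base-side ends of se replicate 2 lay 1 nt before the cut, and 110 of the 111 counts of se replicate 1 lay elsewhere.

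A shift of the cut by 1 nt towards the miRNA was found in MIR165a, MIR166a and MIR166b, so that the fragment begins with the last C of the miRNA and then CCAA, as in the sequences above. MIR166b had the highest shares. Of its base-side ends, 12.4% (9.67 to 15.5) and 24.2% (20.8 to 27.9) lay 1 nt before the cut in fiery1, 0% and 0% in hyl1, and 0% and 19.7% (17.5 to 22.2) in wild type. In se replicate 2 it was 99.2% (97.2 to 99.9), or 249 of 251 ends, and se replicate 1 had a single base-side end. The shifted end thus appeared in both fiery1 libraries and in replicate 2 of both se and wild type. The 0 of 1181 counts in wild-type replicate 1 allow a share of up to 0.254%, so the wild-type replicates differed by more than counting error.

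In MIR166a the shifted end was seen in the fiery1 libraries, at 5.87% (4.73 to 7.18) and 1.93% (1.44 to 2.52) of its base-side ends. The other 6 libraries had 0, which allows up to 1.08% and 0.836% in hyl1, up to 2.08% in se replicate 1, and up to 0.514% and 0.17% in wild type, while se replicate 2 had only 6 base-side ends. The se libraries were thus too shallow to show a share like that of fiery1 replicate 2. In MIR165a it made up 0.932% (0.756 to 1.14) and 1.27% (1.15 to 1.41) of the base-side ends in fiery1, 0% in all 4 hyl1 and se libraries, and 0% and 4.81% (4.22 to 5.45) in wild type. The fiery1 values of MIR165a lay between those of the wild-type replicates. These shares of shifted ends are described without a test.

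A shift of 1 nt away from the miRNA was rarer and was seen in MIR165a alone. It made up 2.37% (2.09 to 2.68) and 0.464% (0.39 to 0.547) of its base-side ends in fiery1, a single count in se replicate 1, and 0% elsewhere. Over all libraries MIR165a had 715 ends 1 nt before and 389 ends 1 nt after the cut, of 51480. MIR166a had 140 before and none after, of 7330, and MIR166b had 680 before and none after, of 4674.

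The 3 covered precursors whose fragment begins with TCAA showed no shift. All 1171 base-side ends of MIR165b, 325 of MIR166e and 625 of MIR166f lay exactly at the cut, which allows shifts in either direction of up to 0.256%, 0.923% and 0.48%. The 3 covered precursors that begin with CCAA had 61560 exact ends among 63484 base-side ends. In fiery1 replicate 2, the deepest library, MIR165b had 0% (0 to 0.573) of its 642 ends 1 nt before the cut, against 1.27% (1.15 to 1.41) in MIR165a, which gives the same miRNA. In wild-type replicate 2, MIR165b had 0% (0 to 1.07) of 343 ends there, against 4.81% (4.22 to 5.45) in MIR165a and 0% (0 to 0.209) in MIR166a. The shift was thus also missing from a CCAA precursor in a library where other CCAA precursors had it. The grouping by these 4 bases was made with the values known and has no test.

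Ends away from the cut were found at 13 further positions in MIR165a, 9 in MIR166a, 3 in MIR166b and 1 in MIR166f. The position 5 nt after the cut of MIR165a was the only further position seen in all 8 libraries. It held 1.09% and 1.04% of the precursor's counts in fiery1, 0.627% and 0.315% in hyl1, 0.904% and 0.384% in se, and 0.989% and 1.38% in wild type. The fiery1 libraries lay between the wild-type libraries there.

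Several ends were seen in fiery1 only. MIR166a had 12 and 6 counts that began exactly at the 5′ end of the miRNA on its 5′ arm, 134 nt before the base-side cut, where the first cut on the 5′ arm would lie. MIR165a had 10 and 51 counts at 54 nt and 11 and 43 counts at 70 nt after the cut, and MIR166b had 39 and 23 counts, or 7.0% (5.03 to 9.45) and 3.7% (2.36 to 5.51), at 68 nt after it. No other genotype had counts at these positions. The tags at 70 nt in MIR165a and at 68 nt in MIR166b ended within 1 nt of the fixed base at which the tags of 18 to 25 nt described below end. That base lies 116 nt after the cut in MIR165a and 96 nt after it in MIR166b. Whether it is the end of the primer was not tested, so these ends may not come from cut precursors. For MIR166b, which had more counts in wild type than in fiery1, 0 counts allow up to 0.254% and 0.265% in wild type, below both fiery1 shares. For MIR166a they allow up to 0.514% and 0.17% in wild type, against shares of 0.763% and 0.211% in fiery1. In MIR165a, 0 of 2932 and 4872 counts in wild type allow 0.102% and 0.0616%. The fiery1 shares there were 0.0936% and 0.163% at 54 nt and 0.103% and 0.137% at 70 nt, so fiery1 replicate 1 stood near a wild-type limit. In hyl1, 0 counts allow up to 0.94% and 0.946% in MIR165a and 0.789% and 0.833% in MIR166a. In se they allow up to 0.542% and 0.128% in MIR165a and 1.92% and 37.5% in MIR166a. The hyl1 libraries and se replicate 1 were thus too shallow to show such shares in MIR165a and MIR166a. So was se replicate 2 in MIR166a, and in MIR165a its limit of 0.128% lay between the 2 fiery1 shares at each position. An end 105 nt before the cut of MIR165a, which is 6 nt before the miRNA on the 5′ arm, held 24 and 72 counts in fiery1 and 1 in hyl1 replicate 2.

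In hyl1 and se the large departures from the cut lay at a few positions of a single library each. In hyl1 replicate 1, 103 of the 380 counts of MIR166a (27.1%, 22.7 to 31.9) began 28 nt before the cut, which is 7 nt before the miRNA, and hyl1 replicate 2 and se replicate 2 had 1 count each there. In se replicate 1, 110 of the 111 counts of MIR166b began 17 nt before the cut, which is 4 nt inside the miRNA. In se replicate 2, MIR165a had 285 counts (12.1%, 10.9 to 13.5) at 3 nt and 270 counts (11.5%, 10.2 to 12.9) at 9 nt after the cut. The other library of the same genotype had at most 1 count at each of these 4 positions.

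**Figure D4:**
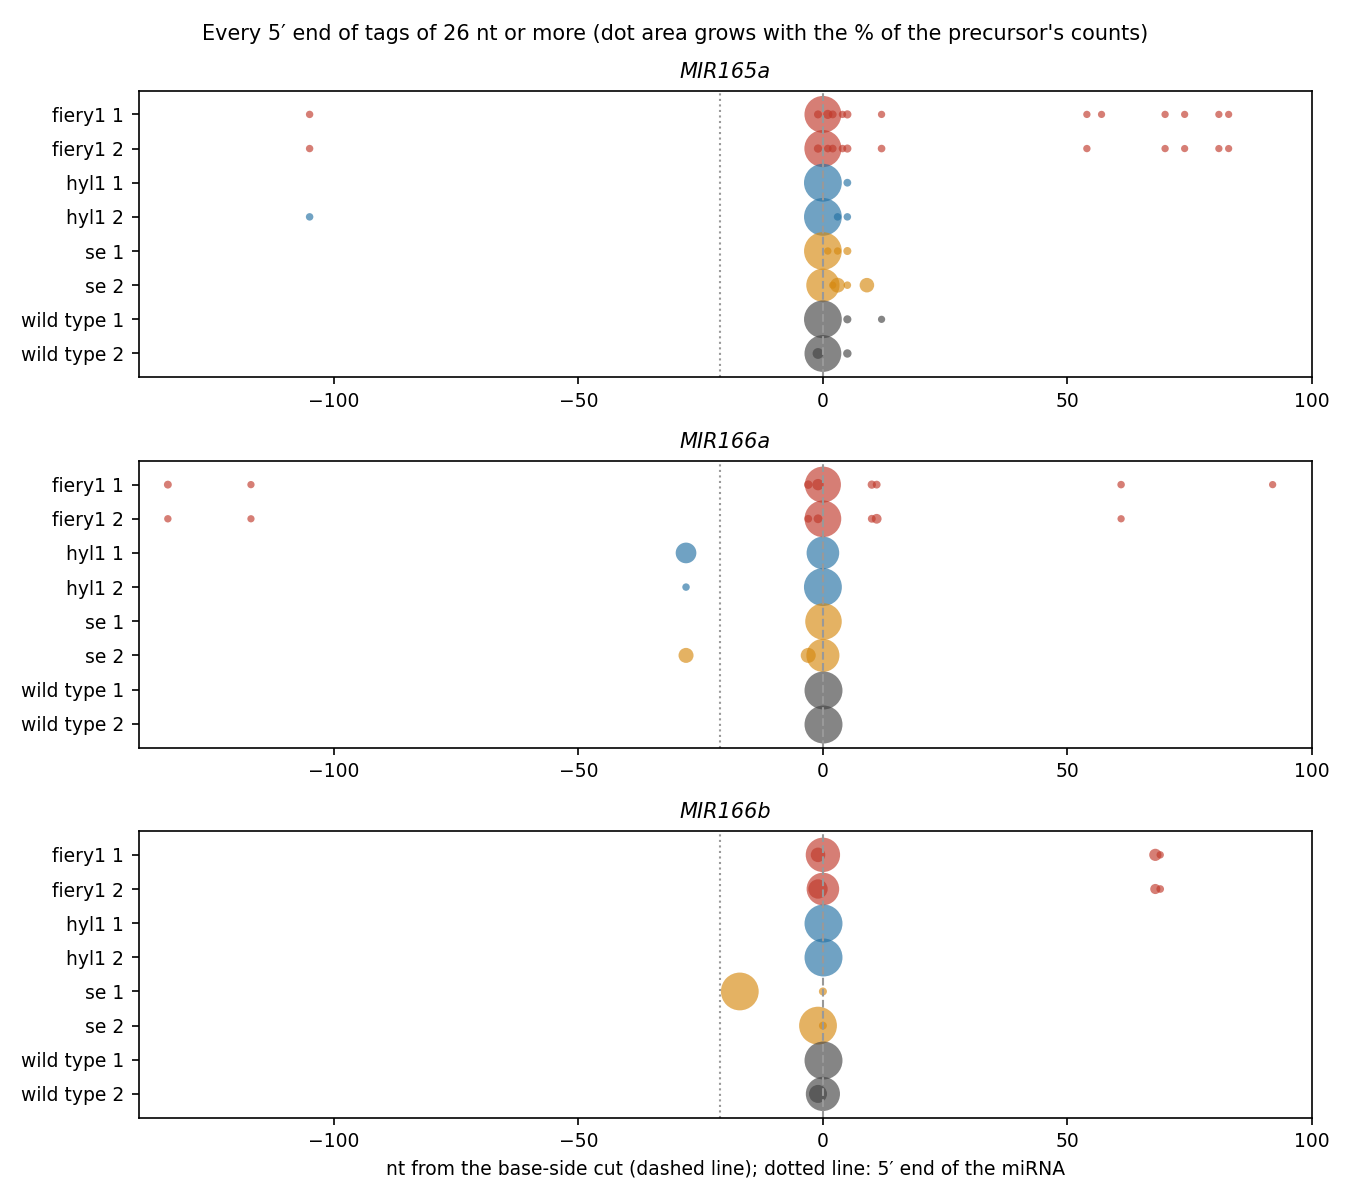
Position of every 5′ end of MIR165a, MIR166a and MIR166b between 140 nt before and 100 nt after the base-side cut (nt), per library, with dot area growing with the share of the precursor's counts. The dashed line is the cut and the dotted line the 5′ end of the miRNA, and the large dot of MIR166b in se replicate 1 lies at 17 nt before the cut.

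Tags of 18 to 25 nt were the only tags listed for MIR166c, MIR166d and MIR166g. In every precursor all such tags ended within 1 nt of a fixed base that lay 96 nt after the base-side cut in MIR166b, the nearest, and 157 nt after it in MIR166f, the farthest. Whether that base is the end of the primer was not tested, since the labels give no primer sequences, so these tags may not come from cut precursors. They are not part of the values above. MIR166f held most of them, with 346 and 553 counts in fiery1, 2 and 192 in hyl1, 534 and 1550 in se, and 107 and 45 in wild type. MIR166d had 38 and 60 counts in fiery1, 0 and 124 in hyl1, 55 and 573 in se, and 0 and 23 in wild type. The family summed to 486 and 720 such tags in fiery1, 3 and 337 in hyl1, 870 and 3271 in se, and 154 and 88 in wild type. MIR166g had 238 in all and none in hyl1, and MIR166c had 70.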

How the data were processed

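The deposited files hold raw counts of each distinct tag with its precursor, start, length and an alignment hit column, and the authors applied no normalisation to these counts, as judged from whole numbers whose totals differ between libraries. Cutadapt and TAIR10 appear in the submitters' processing notes with no versions, and which aligner was used is not given in the sources. Entries on the same locus (within 5 nt) were summed, 111 entries giving 108 precursors, and 13 blank counts, none in MIR165 or MIR166, were left out. Tags were placed on TAIR10.1 by exact matching, and the base-side cut is the base after the 3′ end of the annotated 3′ arm.

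Precursor counts were compared with edgeR 4.0.16 (the quasi-likelihood test, TMM, filterByExpr with a minimum count of 10). The share within 1 nt of the cut was compared with limma 3.58.1 on logits (offset 0.5, at least 20 counts in each library compared). Each was fitted in 1 model of all 8 libraries with Benjamini-Hochberg adjustment and a threshold of 0.05. CPM values are TMM normalised, except the limits for 0 counts, which are scaled to library totals alone. On the TMM scale the limit is higher in hyl1 replicate 2, whose factor was 0.697. DESeq2 1.42.0 on R 4.3.3 was an alternative, and Python 3.11.15 with SciPy 1.17.1 gave exact 95% Clopper-Pearson intervals. RNAfold 2.7.2 folded each gene with 30 nt on either side. The fits were also run on simulated data with large planted changes, a setting that does not test them at the spread and low counts of these libraries. Every member was named whatever its value, and other precursors were given by family list only. The members and lists were chosen with earlier results of these data known.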

Additional observations from a re-analysis of the deposited data

How the results depend on the processing

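Of 254 values of single MIR165 and MIR166 precursors under alternatives, 213 kept their direction and side of the threshold, 6 no longer passed, 19 newly passed and 16 changed sign, and the cause was not tested. The replicate numbers did not pair the samples: correlations of the replicate differences between genotypes over 74 precursors ran from -0.16 to 0.24. With the replicate block, fiery1 had 0 abundance calls instead of 15 and MIR166b an adjusted p of 0.109. The fiery1 abundance calls were 1 with all tags, 1 with tags of 26 to 50 nt, 23 with DESeq2, 5 without a filter, 40 with 2 genotypes alone, 0 to 2 without each replicate, and 34 without hyl1 replicate 1 and se replicate 2, an alternative added after the data were seen (MIR166b adjusted p = 0.0339). The 6 share calls of fiery1 became 13 with 2 genotypes alone, 0 to 7 without each replicate and 13 without those 2 libraries. The hyl1 abundance calls (0) became 2 with tags of 26 to 50 nt, 18 with DESeq2 and 0 to 2 without each replicate, and its 1 share call became 2 within 2 nt, 2 with 2 genotypes alone, 1 to 2 without each replicate and 3 without those 2 libraries. The se abundance calls (0) became 17 with all tags, 2 with tags of 26 to 50 nt, 1 with DESeq2 size factors, 23 with DESeq2, 2 without a filter, 1 with 2 genotypes alone, 1 without shared tags, 1 with hit column 0 only and 0 to 1 without each replicate. Its 1 share call became 12 with all tags, 2 at the exact position, 2 to 4 without each replicate and 7 without those 2 libraries.

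Without each replicate, MIR166a in hyl1 ran between -0.99 and 0.48, MIR166b in hyl1 between -0.58 and 0.53, and the share difference of MIR165a in se between -4.71 and 0.03. The sign changed for MIR165a in fiery1 with tags of 26 to 50 nt (0.58), which leave out most tags of MIR166a and MIR166b by construction. MIR166b in hyl1 changed sign with DESeq2 size factors (-0.34), library totals (-0.05), DESeq2 (-0.34), no filter (-0.35), 2 genotypes alone (-0.03), no shared tags (-0.32), hit column 0 only (-0.31), and without hyl1 replicate 2 (-0.57) or wild-type replicate 2 (-0.58). MIR166a in hyl1 changed sign without hyl1 replicate 1 (0.48), without wild-type replicate 2 (0.05) and without hyl1 replicate 1 and se replicate 2 (0.48). In the shares, MIR166b in hyl1 changed sign at the exact position (3.33, against a value that the offset and depth alone had set), and MIR165a in se without se replicate 2 (0.03) and without both later libraries (0.03). None of these values passed the test. No value of MIR165b in fiery1 could be given without wild-type replicate 2. Depth limits MIR165b, MIR166e and MIR166f in hyl1, se and wild type, where 0 counts in a library of 25753 counts allow up to 116.5 CPM without TMM scaling.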

Other observations

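Tags that began exactly at the base-side cut had nearly the same length within each precursor. In MIR165a 50373 of the 50376 exact ends were tags of 48 nt, and all 325 of MIR166e were of 48 nt. The exact ends of MIR165b, MIR166a, MIR166b and MIR166f were mostly tags of 51 nt, the longest in the files.

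Some further ends of different precursors held similar counts in the same library. In wild-type replicate 2, the end 1 nt before the cut held 231 counts in MIR165a and 223 in MIR166b, and the cut of MIR166e held 229. In se replicate 2, the ends 3 nt and 9 nt after the cut of MIR165a held 285 and 270 counts, and the end 1 nt before the cut of MIR166b held 249.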
